A study of Mus musculus with 2 samples.

Results

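RNA recovered with the antibody BG4 from mouse forebrain was described here for 6 genes that encode regulators of chromatin and transcription: Kdm1a, Phf20, Gtf2i, Zfp280d, Elf2 and Ankrd12. They were picked by name from the 170 genes of the deposited table, with their values already known, so the differences between the libraries below are a description and carry no test. In RNA immunoprecipitation with sequencing, a lysate is passed over an antibody and the RNA that stays bound is sequenced. One library came from a column loaded with histidine-tagged BG4, an antibody that recognises G-quadruplexes. The control library came from a column loaded with normal rabbit IgG. An antibody to the tag was also used, and both lysates were precleared. Both libraries were made from total RNA with an Ion Torrent kit. The labels give no strain, age, sex or number of animals. There was 1 library per antibody, so no value has a spread between replicates, and what separates the libraries cannot be told apart from what separates the antibodies. RNA of the lysate before precipitation was not analysed here, so a BG4 value was not set against how abundant the transcript was in the tissue. The forebrain label was not checked against marker genes, because the table holds a selection of genes higher in BG4.

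A G-quadruplex is a stack of guanine tetrads held together by potassium ions, and it can form in RNA or DNA where several short runs of guanine lie close to each other. In RNA such structures are studied for roles in translation, splicing, localisation and decay. Chromatin regulators set which genes a neuron can transcribe by removing, reading or recruiting histone modifications, and sequence-specific factors bring them to their targets. Kdm1a (also called LSD1) is a histone lysine demethylase of the CoREST corepressor complex. Phf20 is a reader protein of the NSL complex, which in human cells contains the histone acetyltransferase KAT8. Gtf2i encodes TFII-I, a transcription factor whose human gene lies in the interval deleted in Williams-Beuren syndrome. Zfp280d encodes a zinc finger protein, Elf2 a DNA-binding factor of the ETS family, and Ankrd12 an ankyrin-repeat protein whose human counterpart binds nuclear receptor coactivators.

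The sequences that could fold are shown first, because BG4 is an antibody to such folds. A putative motif was defined as 4 runs of at least 3 guanines with loops of 1 to 7 bases, read on the strand of the transcript. Loops could hold any base, guanine included. By this definition 1 of the 6 genes held a motif in its longest annotated transcript, and Gtf2i held one in another transcript. The Gtf2i motif is printed 5′ to 3′ with runs of 3 or more guanines in capitals.
Gtf2i: GGGtGGGcaggcGGGcGGG
It lay at chr5:134296754-134296772 (mm10, minus strand) in 1 of 28 annotated transcripts, a retained-intron transcript with no coding part annotated.

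With loops of up to 12 bases, 4 of the 6 genes held a motif in the longest transcript, and Zfp280d and Ankrd12 still held none. The matches of at most 30 bases that this longer loop added in the longest transcripts are the following, again with runs of 3 or more guanines in capitals.
Kdm1a: GGGaccgaggccGGGtccGGGGcggcGGG
Gtf2i: GGGGctctGGGccgcagctctGGGtctGGG
The Kdm1a sequence was coding, at chr4:136602497-136602525 (mm10, minus strand), and 2 of the 9 annotated transcripts held it. The Gtf2i sequence was in the 3' UTR at chr5:134238144-134238173 (mm10, minus strand), and 10 of the 28 transcripts held it. Longer matches, not printed here, lay in the 5' UTRs of Phf20 and Elf2 and in a further coding stretch of Kdm1a.

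Kdm1a, Phf20, Zfp280d and Ankrd12 had no motif with runs of 3 or more guanines and loops of up to 7 bases in any annotated transcript. For these the shortest match with runs of at least 2 guanines in the longest transcript is shown, with those runs in capitals (for Ankrd12, the first of 2 matches of the same length).
Kdm1a: GGcGGcGGcGG
Phf20: GGcGGtGGagatGG
Zfp280d: GGtGGcagtcctGGaGG
Ankrd12: GGagcaaGGaGGctgtGG
The Kdm1a sequence was coding, at chr4:136602531-136602541 (mm10, minus strand). The Phf20 sequence lay in the 5' UTR at chr2:156196665-156196678 (mm10, plus strand). The Zfp280d sequence lay at chr9:72362430-72362446 (mm10, plus strand), after the coding part of a transcript annotated as subject to nonsense-mediated decay. The Ankrd12 sequence lay in the 5' UTR at chr17:66077032-66077049 (mm10, minus strand). Short runs of this kind are common: 91.6% of 21788 protein-coding genes outside the table held at least 1 such match.

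All 6 genes were higher in the BG4 library, as was every gene of the table, where 100% of the 170 genes were above 2-fold with 1 FPKM added to both values. FPKM scales reads to transcript length and to library size, so levels can be set side by side between genes. The BG4 values of the 6 genes spanned 9.78-fold, from 3.83 FPKM for Phf20 to 37.5 FPKM for Ankrd12. Their IgG values spanned 5.71-fold, from 0.0741 FPKM for Elf2 to 0.424 FPKM for Kdm1a. The lowest BG4 value thus stood above the highest IgG value. Over all 170 genes the lowest BG4 value was 3.76 FPKM and the highest IgG value 1198 FPKM, so this gap did not hold across the whole table. All 6 IgG values were under 1 FPKM, as were 90% of those in the table. An IgG value under 1 FPKM beside a BG4 value of at least 3.76 FPKM was thus not particular to the 6 genes.

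**Figure D1:**
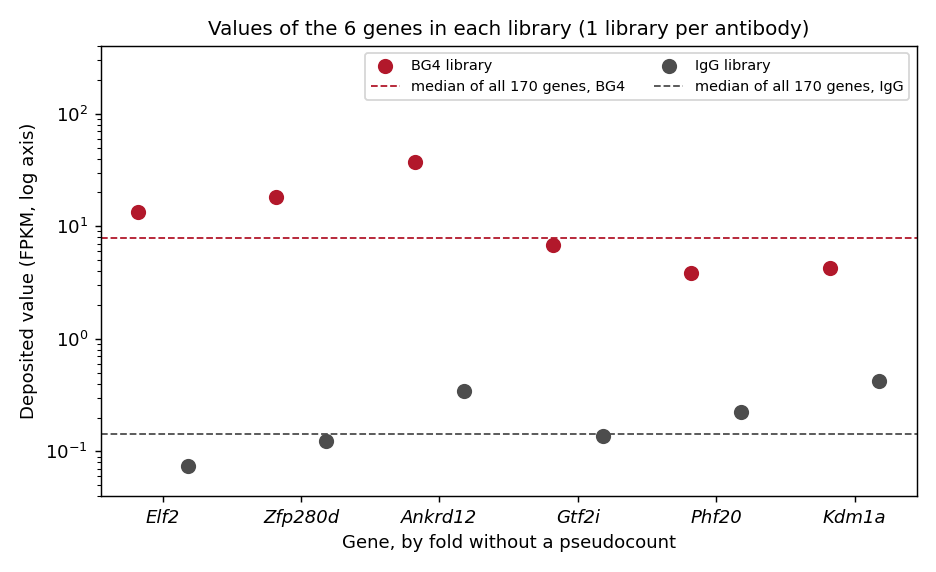
Deposited values of the 6 genes in FPKM (log axis), with the BG4 library left of the IgG library for each gene and genes ordered by fold. Each point is 1 library, and the dashed lines are the medians of all 170 genes, 7.88 FPKM for BG4 and 0.143 FPKM for IgG. Elf2, Zfp280d and Ankrd12 lie above the BG4 median, and Gtf2i, Phf20 and Kdm1a below it.

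Elf2 and Zfp280d had the highest folds of the 6 genes. Elf2 had 13.4 FPKM in BG4, against 0.0741 FPKM in IgG, a fold of 180.4 without a pseudocount. Zfp280d had 18.1 FPKM in BG4, against 0.125 FPKM in IgG, a fold of 144.8. Both had IgG values under the table's median and BG4 values over it. Elf2 had the lowest IgG value of the 6 genes, so its fold ranked above that of Zfp280d although its BG4 value was lower. By fold, Elf2 ranked 26 and Zfp280d ranked 37 of 170.

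Ankrd12 had the highest BG4 value of the 6 genes, 37.5 FPKM in BG4 against 0.343 FPKM in IgG, a fold of 109.2. Its BG4 value ranked 17 of 170 and its IgG value 49 of 170, so it stood in the upper part of the table in both libraries. Its fold equalled that of Fam114a2 (4.63 FPKM in BG4 and 0.0424 FPKM in IgG) and of Mrpl42 (7.84 FPKM in BG4 and 0.0718 FPKM in IgG) within 1 part in 10000. The levels of the 3 genes differed while their folds did not, and none of the other 5 regulator genes shared its fold with another row at that tolerance. With 2 libraries the fold is the only pattern across libraries that can be compared between genes, and it leaves out their levels. The IgG values of all 3 genes were under 1 FPKM and read depth is unknown, and what lies behind the equal folds was not tested.

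Gtf2i had 6.88 FPKM in BG4, against 0.137 FPKM in IgG, a fold of 50.2. Both values lay near the medians of the table, and the fold ranked 93 of 170. The genes on either side of the table's median fold of 54.2 were Tor1a (54.4) and Eva1c (54.0), and Gtf2i stood at 0.926 times that median.

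The histone demethylase and the NSL complex reader had the lowest folds of the 6 genes. Phf20 had 3.83 FPKM in BG4, against 0.225 FPKM in IgG, a fold of 17.0. Kdm1a had 4.27 FPKM in BG4, against 0.424 FPKM in IgG, a fold of 10.1. In both, a BG4 value in the lower part of the table met an IgG value in the upper part: Phf20 ranked 167 by BG4 and 62 by IgG, and Kdm1a ranked 152 by BG4 and 43 by IgG. By fold, Phf20 ranked 146 and Kdm1a 164 of 170. The folds of the 6 genes spanned 17.9-fold in all.

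At 100-fold or more without a pseudocount stood 3 of the 6 genes (Elf2, Zfp280d and Ankrd12), where 32.4% of the table did. At 10-fold or more stood all 6, where 96.5% of the table did. Above the table's median fold stood the same 3, where 50% did by construction, and they also had the 3 BG4 values of at least 10 FPKM, which 41.2% of the table had. With 1 FPKM added to both values, the log2 ratio was 4.84 for Ankrd12, 4.09 for Zfp280d, 3.74 for Elf2, 2.79 for Gtf2i, 1.98 for Phf20 and 1.89 for Kdm1a. On that scale Ankrd12 rather than Elf2 ranked highest of the 6, and 4 genes were above 4-fold (96.5% of the table), Phf20 and Kdm1a falling just short. The median log2 ratio of the 6 genes was 3.27, against 2.87 over all 170 genes. The added 1 FPKM is larger than each of the 6 IgG values, so this ratio follows the BG4 value more closely than the fold does.

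No source used here gives the scaling between the libraries. When each library was divided by its own median over the 170 genes before 1 was added, the log2 ratio was 0.83 for Elf2, 0.82 for Zfp280d and 0.76 for Ankrd12. It was -0.064 for Gtf2i, -0.79 for Phf20 and -1.36 for Kdm1a. This division centres a table made only of genes higher in BG4, so genes with folds near or under its median turn by construction. It gives each gene's place within the table and says nothing of its direction between the libraries. The median of all 170 genes was -0.0096 on this scale, against 2.87 without the division.

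The authors' deposited table also held a p-value and a q-value for each gene, from a test that compares the 2 libraries and not the antibodies. In the authors' deposited table, q was under 0.05 for 3 of the 6 genes (0.0179 for Gtf2i, 0.0205 for Ankrd12 and 0.0374 for Zfp280d), where 8.24% of the 170 genes were. The q of Elf2 in the authors' deposited table was 0.0525, that of Phf20 0.194 and that of Kdm1a 0.320. The order by q was not the order by fold. Gtf2i had the smallest q of the 6 genes with a fold under the table's median, whereas Elf2 had the largest fold and a q just above 0.05. In the authors' deposited table, the q of Gtf2i stood in 5 rows and that of Elf2 in 5 rows, each count including the gene itself.

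**Figure D2:**
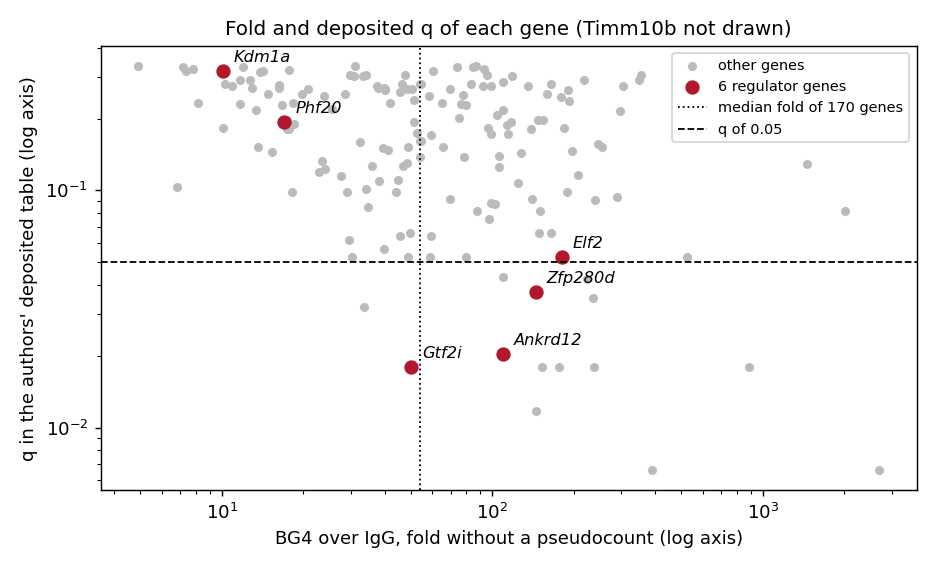
BG4 over IgG fold without a pseudocount (x, log axis) against q in the authors' deposited table (y, log axis), 1 point per gene, with the 6 regulator genes in red and the others in grey. Timm10b is not drawn because its IgG value was effectively 0. Gtf2i, with a fold of 50.2, lies lowest of the 6 on the q axis, and Elf2, with a fold of 180.4, lies just above the line at 0.05.

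Each gene's deposited locus was set against GENCODE release M21, which annotates the build the authors used, to see whose reads could enter its value. For Phf20 (ENSMUSG00000038116.12), at chr2:156196466-156309952 on the plus strand, the locus equalled the annotated gene and held no other gene. For Gtf2i (ENSMUSG00000060261.11), at chr5:134237834-134314760 on the minus strand, it also equalled the gene, and the 2 other genes within it shared no exon base with Gtf2i. For Elf2 (ENSMUSG00000037174.14), at chr3:51252720-51340663 on the minus strand, exons shared 371 bases with 4930577N17Rik on the other strand, out of 9563 exon bases. The locus held 3 other genes in all, and the rest shared no exon base with Elf2.

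The other loci differed from the annotated genes. That of Kdm1a (ENSMUSG00000036940.11), at chr4:136469761-136602723 on the minus strand, reached 80779 bases past the gene. It held Luzp1, a protein-coding gene on the plus strand, and the pseudogene Gm12987 on the minus strand. Neither shared an exon base with Kdm1a. That of Zfp280d (ENSMUSG00000038535.13), at chr9:72274860-72409945 on the plus strand, reached 46168 bases past the gene. It held 9 other genes, none protein-coding, and those on the same strand shared no exon base with Zfp280d. Zfp280d exons shared 746 of their 19017 bases with the antisense gene BC065403. That of Ankrd12 (ENSMUSG00000034647.10), at chr17:65967501-66077089 on the minus strand, left out 1803 bases of the gene as annotated in release M21. The 1 other gene it held shared no exon base with Ankrd12. No source used here says how the authors' counting treated strand, so reads of Elf2 or Zfp280d and of their antisense partners cannot be told apart over the shared bases. Their part in the values was not tested.

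The longest annotated transcripts of the 6 genes had a median of 5824 bases, against 3641 bases in the other 164 genes of the table, and 5 of them, all but that of Kdm1a, were longer than 3641 bases. They ran from 3028 bases for Kdm1a to 10821 bases for Ankrd12. The number of annotated transcripts per gene ran from 9 in Kdm1a to 28 in Gtf2i. Its median was 12 in the 6 genes, against 9 in the 164 others. GC content was 37.7% for Zfp280d, 40.0% for Ankrd12, 47.0% for Elf2, 47.5% for Phf20, 51.7% for Kdm1a and 52.5% for Gtf2i. The median of the 6 was 47.2%, against 51.2% in the other 164 genes.

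Motifs with runs of at least 2 guanines were counted on the same transcripts. Zfp280d had 4, or 0.677 per kilobase, and Ankrd12 had 8, or 0.739 per kilobase. Phf20 had 11 (1.92 per kilobase), Elf2 12 (2.03 per kilobase), Gtf2i 15 (3.37 per kilobase) and Kdm1a 13 (4.29 per kilobase). The median of the 6 was 1.97 per kilobase, against 2.47 in the other 164 genes of the table and 1.95 in the 21788 protein-coding genes outside it. Among the 6 genes, Kdm1a had the most such motifs per kilobase and the lowest fold, and the 3 genes at 100-fold or more included the 2 with the fewest. Elf2, however, had the highest fold (180.4) and more such motifs per kilobase (2.03) than Phf20 (1.92), whose fold was 17.0. This describes 6 genes chosen by name, and the same 2 genes with the fewest motifs also had the lowest GC content.

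**Figure D3:**
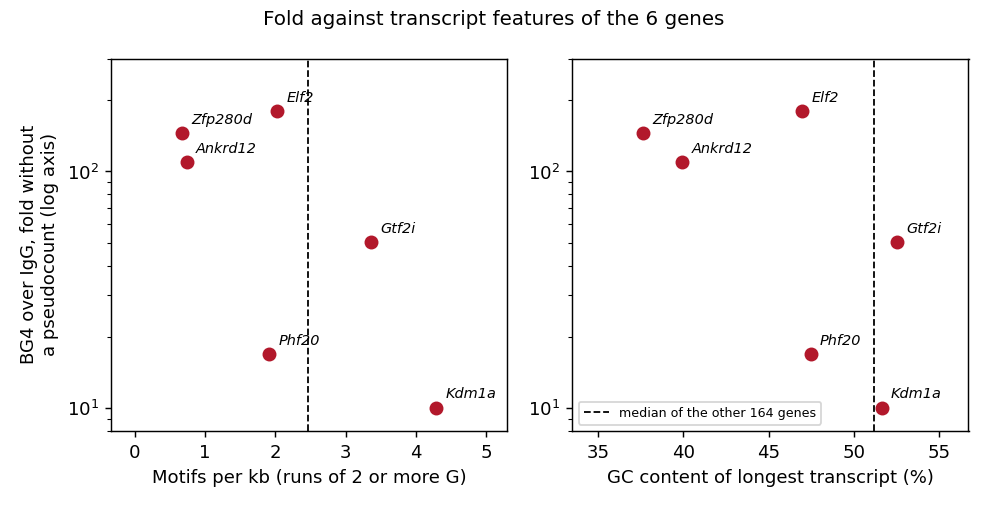
BG4 over IgG fold without a pseudocount (y, log axis) against motifs per kilobase with runs of 2 or more guanines (left) and GC content in percent (right) of the longest annotated transcript, 1 point per gene. Dashed lines are the medians of the other 164 genes, 2.47 per kilobase and 51.2%. Zfp280d and Ankrd12 lie at the left of both panels with folds over 100, and Kdm1a lies at the right of the left panel with a fold of 10.1. Elf2, with the highest fold, lies between them in the left panel.

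The motifs with runs of at least 2 guanines lay unevenly along the transcripts. Of the 63 in the 6 genes, coding sequence held 28, the 5' UTRs held 21 and the 3' UTRs held 14. Summed over the 6 transcripts, 5' UTRs held 13.3 such motifs per kilobase (over 1574 bases), coding sequence 1.65 and 3' UTRs 0.809. In the 117 other protein-coding genes of the table whose longest transcript has a coding part, 5' UTRs held 6.37 per kilobase, coding sequence 2.80 and 3' UTRs 1.92. In 19239 such genes outside the table, 5' UTRs held 4.86 per kilobase, coding sequence 2.42 and 3' UTRs 1.49. The order of the regions was thus shared by all 3 sets of genes. The pooled 5' UTR value of the 6 genes was the highest of the 3 sets, but it rests on few bases and its difference was not tested. It was also uneven between the genes. The 5' UTR of Kdm1a was the densest, with 3 such motifs in 102 bases, and that of Zfp280d the sparsest, with 1 in 164 bases.

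In Kdm1a, 10 of the 13 motifs lay within the first 500 bases of the transcript, and in Elf2 6 of 12 did. Ankrd12 and Phf20 had 4 each within that stretch, and Gtf2i had 4 of its 15. Zfp280d had 1. Its longest transcript has a coding part of only 444 bases, and most of its length counts as 3' UTR here. In its longest transcript annotated as protein-coding, of 4387 bases, Zfp280d held 3 such motifs. The 5' UTRs of the 6 longest transcripts were rich in GC, from 60.7% for Elf2 to 81.4% for Kdm1a. The files give 1 value per gene, so which stretch of a transcript was recovered with BG4 was not measured.

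**Figure D4:**
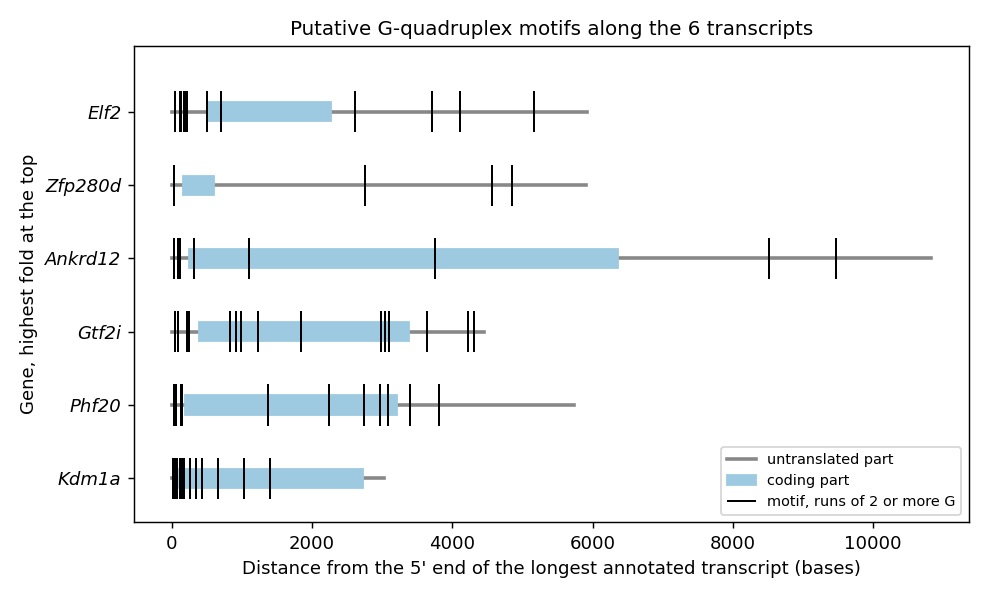
Longest annotated transcript of each gene, drawn to scale from the 5' end (x, bases), with the gene of the highest fold at the top. Blue boxes are coding parts, grey lines untranslated parts, and black ticks motifs with runs of 2 or more guanines. Ticks gather near the 5' end in Kdm1a, where 10 of 13 lie in the first 500 bases.

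The count of genes with a motif of at least 3 guanines per run was also set beside other genes. In the longest transcript 1 of 6 held one, against 19.7% of the 157 other protein-coding genes of the table and 19.0% of the 21788 outside it. In any annotated transcript 2 of 6 did, against 33.8% of the 157 and 25.1% of the 21788. With loops of up to 12 bases 4 of 6 did, against 41.4% of the 157 and 31.7% of the 21788. These counts of 6 are too few to set a share apart from those of the other genes, and no test was made. The 21788 genes had medians of 3 annotated transcripts and 2876 bases in the longest, against 12 and 5824 bases in the 6. They thus held less sequence to match. A match says that the letters are present, not that a fold forms or that BG4 bound there.

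The partners and relatives of the 6 genes were looked for by name. The lists held 136 entries in 9 groups, a gene counted in each group that lists it, and 0 of them were in the table. The table held few protein-coding genes, 157 besides the 6, against 21788 outside it, so a count of 0 says little about these lists. They covered the CoREST partners of Kdm1a (15 genes, such as Rcor1 and Hdac1), the NSL complex of Phf20 (9 genes, such as Kat8 and Kansl1) and the relatives and partners of TFII-I (6 genes). They also covered the other ETS factors (24 genes), the Zfp280 relatives (3 genes), and Ankrd11 with the corepressors and coactivators around it (10 genes). The wider groups were histone lysine demethylases (18 genes), histone lysine methyltransferases (23 genes) and general transcription factors (28 genes). Absence from a table of selected genes gives no level and no difference for these genes. The lists are not whole classes: other genes of transcription and chromatin, such as Smarce1, Jade1, Bcorl1, Tcf7l2 and Tfeb, named here after the table was seen, were in the table but were on none of the lists.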

How the data were processed

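One BG4 and 1 IgG library from mouse forebrain were compared. The authors deposited 1 table of 170 genes. Cufflinks and build mm10 are named in the submitters' processing notes. No source used here gives their versions, the aligner, the annotation, filters or strand handling. The deposited values were taken to be FPKM from the column layout, since the header names no unit. The deposited log2 values, p-values and q-values are the authors', per the file headers, and the log2 values were not used. Read depth is unknown. A search for a common unit placed 7 of 153 folds on whole multiples within 0.02%. The best of many trial units was kept, so that count does not settle the depth.

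Folds were BG4 over IgG, and log2 ratios had a pseudocount of 1 FPKM. No test was made, with 1 library per antibody. At least 1 FPKM in 1 library was required, which all 6 genes met. Genes were matched to GENCODE release M21 by identifier without version (170 of 170), and 1 was added to each deposited start. Motifs were searched on the GENCODE transcript sequences without overlap. Annotated transcripts of any type were used. The sequence and place of 1 motif are not reported here. The members and lists were chosen with earlier results of these data known. The rule for naming genes took the 6 members, list genes in the table (0 were), rows of equal fold, and the 2 rows next to the median fold. Neighbouring genes, Timm10b and 5 further genes of transcription and chromatin were named outside it, after the data were seen. Python 3.11.15, pandas 2.3.3 and numpy 2.4.6 were used.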

Additional observations from a re-analysis of the deposited data

How the results depend on the processing

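The median log2 ratio of the 6 genes, 3.27, became 5.58 with a pseudocount of 0.1 FPKM, 6.21 with none and 0.35 after division by the library medians. Each of the 6 ratios, taken out of log2, moved by over 1.5-fold under each of the 3 settings. After division by the medians, Gtf2i (-0.064), Phf20 (-0.79) and Kdm1a (-1.36) turned lower in BG4, which centring the table does by construction to genes with folds near or under its median. Of the 6 genes above 2-fold, 3 had at least 10 FPKM in a library, always the BG4 library, where 41.2% of the table had such a BG4 value. The number was 6 with no filter (100% of the table), 4 at 4-fold (96.5%) and 6 at 10-fold without a pseudocount (96.5%). These counts thus largely follow the selection of the table. The count of 1 gene with a motif became 6 with runs of 2 or more guanines, 4 with loops to 12 bases and 2 over any annotated transcript. It was 1 in the longest protein-coding transcript, a setting added once the data had been seen. No paired analysis was possible because each antibody had a single library. Read depth is not known, and its bearing on the low IgG values was not computed.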
